A study of Homo sapiens with 8 samples.

Results

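Both p300/CBP inhibitors together were set against solvent in LNCaP-FGC cells, a subline of a human prostate carcinoma that depends on androgen. The inhibitor libraries come from cells that received I-CBP112, which occupies the bromodomain of p300 and CBP, plus A-485, which blocks their catalytic acetyltransferase site, and the solvent libraries from cells that received DMSO, each for 24 h. The comparison rests on 4 of the 8 RNA-seq libraries of the series, 2 with both inhibitors and 2 with DMSO, chosen by their treatment label. The other 4 libraries, from cells given 1 compound alone, entered the fit for its estimate of the spread. No source used here gives the doses. All groups share the 1 cell line. Whether the 2 libraries of a group are separate cultures is not in the labels, so each p-value reflects spread between libraries that may be technical only. All replicate 1 columns carried 1 shared prefix and all replicate 2 columns another, whose meaning the labels do not give.

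p300 and CBP are paralogous coactivators that acetylate histones at enhancers and promoters, most of all lysines of histone H3 and H4, and that bind acetylated lysine through a bromodomain. In luminal prostate cells they are recruited by transcription factors such as FOXA1 and HOXB13 to the enhancers of androgen-responsive genes such as KLK3, the gene for prostate-specific antigen. Blocking the catalytic site lowers acetylation, and blocking the bromodomain interferes with how the proteins are held on acetylated chromatin.

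Levels are given as scaled FPKM. This is FPKM (fragments per kilobase and per 1e+06 fragments) brought to a sum of 1e+06 in each library, then scaled between libraries. Changes are log2 fold changes of scaled FPKM plus 1, both inhibitors minus DMSO, with the standard error after the ± sign. This scale understates the change of genes with low values. The libraries held an estimated 16.9 and 13.5 M fragments (M, in units of 1e+06) on the table with both inhibitors, against 21.1 and 4.70 M with DMSO. These were 96.8% and 49.4% of the fragments the FPKM had been normalized by with both inhibitors, against 99.2% and 22.6% with DMSO. The number of genes above an FPKM of 1 was 11152 and 10069 with both inhibitors and 10581 and 8363 with DMSO. FOLH1, KRT8, FOXA1 and HOXB13, markers of luminal prostate cells, lay between 169 and 1448 scaled FPKM in the 4 libraries.

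More genes were lower than higher after 24 h with both inhibitors. At a limma adjusted p under 0.05, 846 genes (7.13% of 11873) fell and 401 (3.38%) rose, so that 1247 (10.5%) were called. Of these, 562 fell and 192 rose by at least 1 on the log2 scale, which is 2-fold, and 96 fell and 8 rose by at least 2 on the log2 scale. The median change of the called genes was -1.18 for those that fell and 0.99 for those that rose, against 0.04 over all genes tested. Over all genes tested 71.3% had the same sign in replicate 1 and in replicate 2. All 1247 called genes did, which the call favours, with medians of -1.25 and -1.10 for the genes that fell and 0.96 and 1.02 for those that rose. The 2 libraries with both inhibitors lay below both DMSO libraries for 26.6% of all genes tested and above both for 28.8%. All 846 genes called lower and all 401 called higher had such a gap between groups, so a gap adds nothing to a call. The genes that fell had a median level of 10.8 with both inhibitors and 27.0 with DMSO, and those that rose had medians of 12.8 with both inhibitors and 5.58 with DMSO. The genes that fell made up 2.8% of the summed level with both inhibitors and 6.2% with DMSO, and the genes that rose made up 1.1% with both inhibitors and 0.5% with DMSO. In bulk RNA, fewer cells of a type and less RNA per cell cannot be told apart. Counts of called list members below are to be read beside the 7.13% of all genes called lower and 3.38% called higher.

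The split depended on the scaling and the count on single libraries. With libraries scaled to their totals alone, the median gene lay at 0.25, and 489 genes fell and 737 rose. Without replicate 1 of both inhibitors 274 genes were called (236 lower, 38 higher), and without replicate 2 of both inhibitors 312 (270 lower, 42 higher). Of the 1247 genes, 220 were called with any 1 of the 8 libraries left out, 196 lower and 24 higher.

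**Figure D1:**
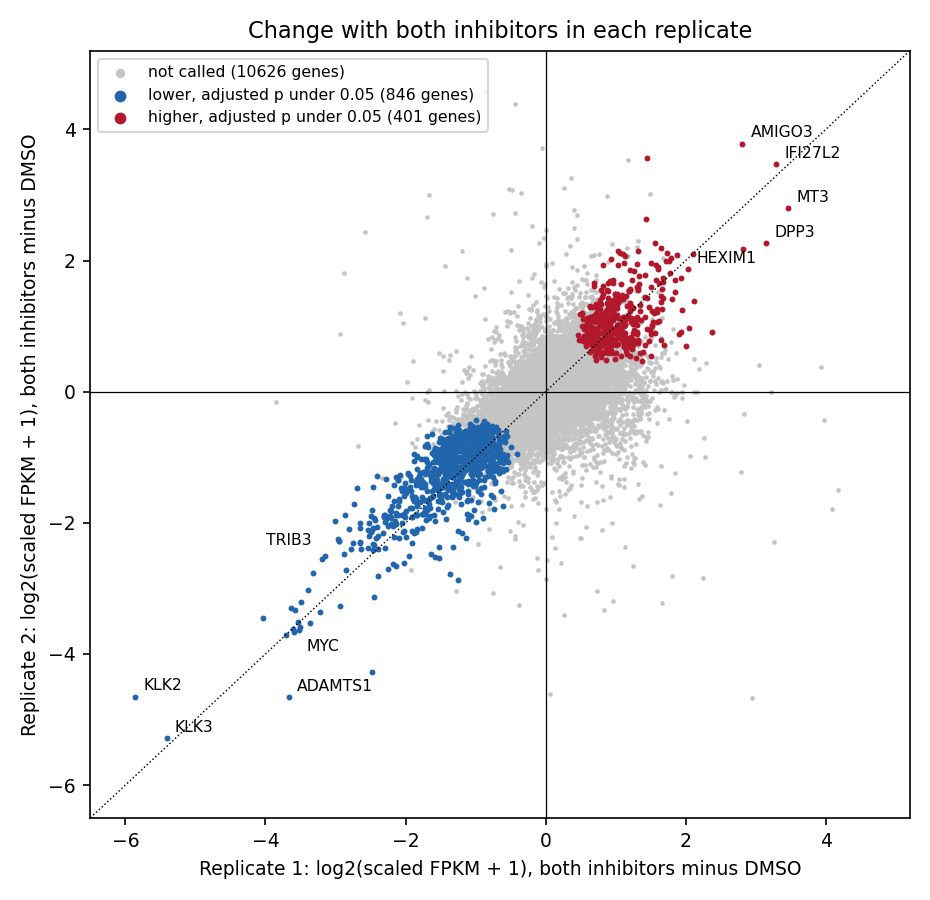
Each point is a gene, with its change in log2(scaled FPKM + 1), both inhibitors minus DMSO, in replicate 1 on the horizontal axis and in replicate 2 on the vertical axis. The 846 called lower genes (blue) lie in the lower left and the 401 called higher genes (red) in the upper right, and KLK3 and KLK2 lie farthest from 0.

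Among the kallikreins, secreted serine proteases of the prostate, 3 of 4 genes tested fell and 0 rose, and KLK3 and KLK2 had the deepest falls of all genes called. KLK3, which encodes prostate-specific antigen, was at 51.4 and 50.5 scaled FPKM with both inhibitors, against 2231 and 2006 with DMSO. It fell by 5.35 ± 0.18 on the log2 scale (limma, adjusted p = 2.08e-05), to a mean of 51.0 ± 0.687 (SD), against 2119 ± 159 (SD) with DMSO. KLK2, the protease that activates the KLK3 product, was at 8.40 and 13.7 with both inhibitors, against 545 and 368 with DMSO. Its log2 fold change was -5.26 ± 0.27 (limma, adjusted p = 0.000135), with -5.86 in replicate 1 and -4.65 in replicate 2. The groups did not overlap for either gene, which holds for all genes called. KLK4, another androgen-regulated kallikrein, was at 31.1 and 40.0 with both inhibitors, against 236 and 227 with DMSO, and fell by 2.68 ± 0.19 on the log2 scale (limma, adjusted p = 0.000392). KLK15, the other member tested, had a log2 fold change of -0.33 (limma, adjusted p = 0.77). With A-485 alone against the same DMSO libraries, KLK3 had a log2 fold change of -1.82, and with I-CBP112 alone of -0.96. For KLK2 the values were -2.03 with A-485 alone and -1.11 with I-CBP112 alone, and the 3 contrasts share their DMSO libraries.

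KLK3 and KLK2 are neighbours on chromosome 19, and the 250 bases before their transcription starts are shown because the pair fell farthest. They are from RefSeq on GRCh38.p14, chr19:50854665-50854914 for KLK3 and chr19:50873189-50873438 for KLK2, both on the plus strand. Capitals mark GAACAGCAAGTGCT, a run chosen after reading both sequences.
KLK3: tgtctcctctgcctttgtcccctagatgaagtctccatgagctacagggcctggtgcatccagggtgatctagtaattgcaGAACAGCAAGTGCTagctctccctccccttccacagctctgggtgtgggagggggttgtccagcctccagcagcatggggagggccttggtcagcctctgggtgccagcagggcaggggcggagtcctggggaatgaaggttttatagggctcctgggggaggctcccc
KLK2: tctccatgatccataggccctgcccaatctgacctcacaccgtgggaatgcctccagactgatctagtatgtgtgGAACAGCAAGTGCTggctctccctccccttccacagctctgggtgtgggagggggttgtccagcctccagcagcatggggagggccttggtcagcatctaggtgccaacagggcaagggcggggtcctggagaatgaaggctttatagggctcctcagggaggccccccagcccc
The windows were identical at 85.1% of 241 aligned bases, with a longest shared run of 80 bases. The marked run began 169 bases before the start in KLK3 and 175 bases before it in KLK2, and on either strand it stood in these 2 of 27305 promoter windows. The hexamer AGAACA, a core sequence of steroid response elements, on either strand stood in 1 of 34 windows of androgen-induced genes, that of KLK3, where it overlaps the marked run by all but its first base. It stood in 12.4% of all windows, 7.05% of the windows of genes tested, 8.22% of those of genes that fell and 4.26% of those of genes that rose.

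Most of the androgen-induced genes tested fell. Of 47 tested, 36 fell (76.6%, beside 7.13% of all genes) and 0 rose, with a median log2 fold change of -1.39, and 46 lay below 0. The count was 24 without replicate 1 of both inhibitors and 25 without replicate 2. TMPRSS2, a membrane serine protease, was at 13.4 and 11.8 scaled FPKM with both inhibitors, against 187 and 167 with DMSO (log2 fold change -3.71 ± 0.20; limma, adjusted p = 0.000135). It changed by almost the same amount in each replicate. SLC45A3, a prostate transporter also called prostein, was at 16.3 and 14.8 with both inhibitors, against 180 and 127 with DMSO. C1orf116, which encodes a protein known as specifically androgen-regulated gene protein, was at 4.10 and 5.09 with both inhibitors, against 82.9 and 65.3 with DMSO. The potassium channel gene KCNN2 was at 4.58 and 5.57 with both inhibitors, against 68.7 and 63.6 with DMSO. These 3 fell by 3.20 to 3.74 on the log2 scale and were called with any 1 library left out. FKBP5, a partner of HSP90 in steroid receptor complexes, fell to 8.0 and 8.62 with both inhibitors, against 23.6 and 19.6 with DMSO (log2 fold change -1.27 ± 0.17; limma, adjusted p = 0.0045). The 11 members not called ran from -0.78 for HPGD, which breaks down prostaglandins, to 0.14 for MED28, a Mediator subunit. They included SGK1 at -0.36 and NDRG1 at -0.65 (limma, adjusted p = 0.39 and 0.18).

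**Figure D2:**
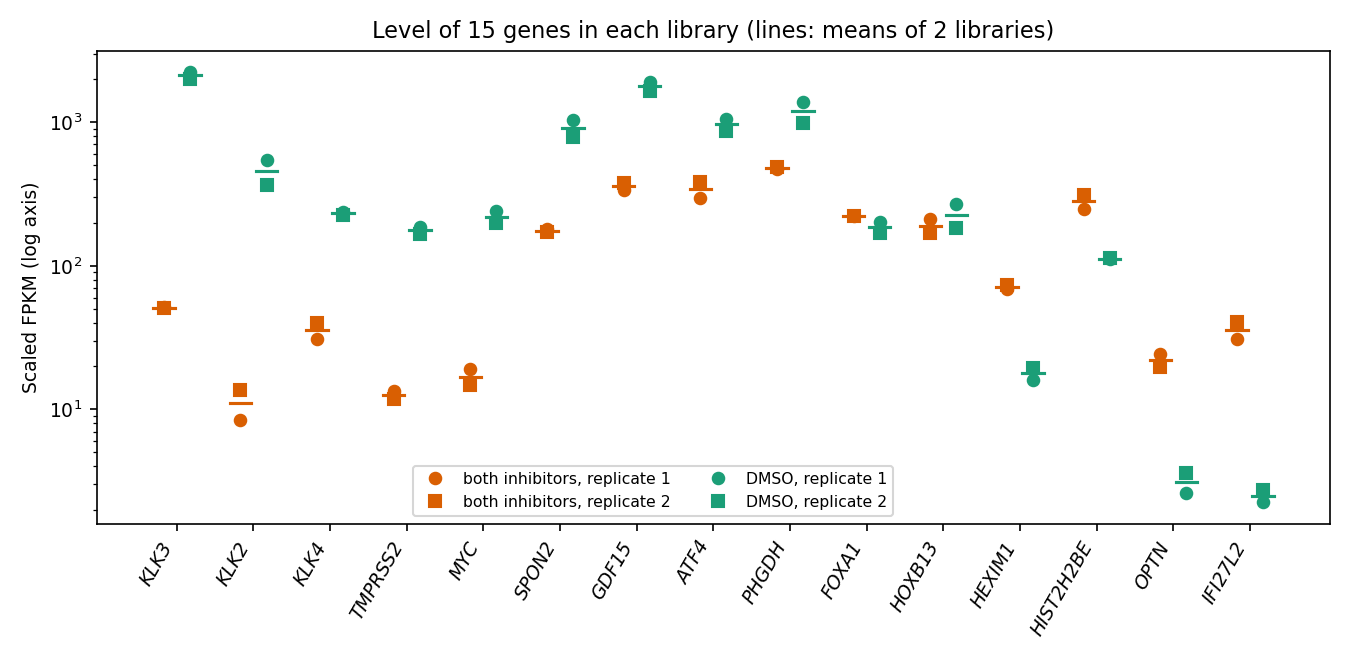
Level of 15 genes in scaled FPKM (log axis) in the 2 libraries with both inhibitors (left of each pair, orange) and the 2 with DMSO (right, green), with circles for replicate 1, squares for replicate 2 and a line at the mean. KLK3 lies at 51.4 and 50.5 with both inhibitors and at 2231 and 2006 with DMSO, FOXA1 and HOXB13 lie close together in the groups, and HEXIM1, HIST2H2BE, OPTN and IFI27L2 lie higher with both inhibitors.

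Genes known to be repressed by androgen also fell in large part. Of 20 tested, 13 fell and 0 rose, with a median log2 fold change of -1.19. The count was 7 without replicate 1 of both inhibitors and 9 without replicate 2. DDC, the decarboxylase that makes dopamine and serotonin, was at 7.51 and 11.4 scaled FPKM with both inhibitors, against 95 and 114 with DMSO (log2 fold change -3.35 ± 0.25; limma, adjusted p = 0.00049). PRUNE2 was at 8.94 and 9.22 with both inhibitors, against 75 and 97.3 with DMSO (log2 fold change -3.10 ± 0.18; limma, adjusted p = 0.000145). HES6, a helix-loop-helix cofactor, was at 57.5 and 41.3 with both inhibitors, against 337 and 220 with DMSO (log2 fold change -2.46 ± 0.31; limma, adjusted p = 0.0034). With 1 library left out, the log2 fold changes of these 3 genes lay between -3.62 and -2.15. The exons of PRUNE2 overlap those of PCA3 and GCNT1 on the opposite strand, so the gene behind the shared fragments is uncertain. UGT2B17 and UGT2B15, which conjugate androgens with glucuronic acid, fell by 1.94 and 1.34 on the log2 scale. UGT2B15 was not called without replicate 1 or 2 of both inhibitors (limma, adjusted p up to 0.0827). The UGT2B genes are close copies, so their fragments may be split between them.

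Several luminal transcription factors fell, and others did not pass the test. Of 19 lineage transcription factors tested, 11 fell and 0 rose (median -0.95). The count was 7 without either library with both inhibitors. SPDEF, an ETS factor of secretory epithelium, was at 22.6 and 16.7 scaled FPKM with both inhibitors, against 129 and 93.7 with DMSO (log2 fold change -2.44 ± 0.24; limma, adjusted p = 0.00124). ZBTB16, a zinc finger repressor induced by steroid receptors, was at 3.81 and 2.58 with both inhibitors, against 13.9 and 18.9 with DMSO. XBP1, which drives secretory capacity, fell by 1.93 ± 0.21, and CREB3L4, a membrane-bound bZIP factor of the prostate, by 1.51 on the log2 scale. FOXA1, a pioneer factor, was at 221 and 223 with both inhibitors, against 202 and 169 with DMSO (log2 fold change 0.26 ± 0.18; limma, adjusted p = 0.368). HOXB13 was at 211 and 170 with both inhibitors, against 271 and 183 with DMSO. Its log2 fold change of -0.23 ± 0.27 did not pass (limma, adjusted p = 0.607) and changed sign to 0.01 with scaling to library totals and to 0.05 without DMSO replicate 1.

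Among 18 prostate surface and secreted antigens, 8 fell and 0 rose (median -0.74), with 4 called without replicate 1 of both inhibitors and 5 without replicate 2. ACPP, prostatic acid phosphatase, was at 0.59 and 0.77 scaled FPKM with both inhibitors, against 18.4 and 20.7 with DMSO (log2 fold change -3.62 ± 0.24; limma, adjusted p = 0.00032). TRPM8, a cold-sensing channel, was at 0.02 and 0.05 with both inhibitors, against 4.68 and 4.25 with DMSO (log2 fold change -2.40 ± 0.21; limma, adjusted p = 0.000739). STEAP1, a surface metalloreductase family member, fell by 1.59 on the log2 scale and was not called without replicate 1 of both inhibitors (limma, adjusted p = 0.0529). FOLH1, the prostate-specific membrane antigen, was at 372 and 418 with both inhibitors, against 458 and 505 with DMSO (log2 fold change -0.29 ± 0.18; limma, adjusted p = 0.343). KRT8, a luminal keratin, was at 1448 and 740 with both inhibitors, against 1203 and 764 with DMSO, and the groups overlapped.

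MYC, the growth-promoting transcription factor, was among the deepest falls. It was at 19.1 and 14.7 scaled FPKM with both inhibitors, against 241 and 198 with DMSO, a log2 fold change of -3.63 ± 0.20 (limma, adjusted p = 0.000135), with -3.59 in replicate 1 and -3.67 in replicate 2. It was the 1 member called among 14 genes of its network (7.14%, beside 7.13% of all genes called lower). Its dimer partner MAX had a log2 fold change of -0.23 (limma, adjusted p = 0.59). The network had a median of -0.15, which turned to 0.09 with scaling to library totals. Of 52 genes that assemble ribosomes in the nucleolus, among them known MYC targets, 16 fell and 0 rose (median -0.66, 50 below 0). The count was 5 without replicate 1 of both inhibitors, 6 without replicate 2 of both inhibitors, 9 without DMSO replicate 1 and 10 with scaling to library totals. NOB1, an endonuclease that matures 18S ribosomal RNA, was at 34.7 and 34.8 with both inhibitors, against 98.4 and 92.8 with DMSO (log2 fold change -1.43 ± 0.19; limma, adjusted p = 0.00411). NOLC1, a nucleolar chaperone, was at 43.6 and 40.9 with both inhibitors, against 119 and 104 with DMSO (log2 fold change -1.38 ± 0.17; limma, adjusted p = 0.00313). Nucleolin (NCL) and nucleophosmin (NPM1) did not pass, at -0.54 and -0.59 (limma, adjusted p = 0.13 and 0.26).

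The cytosolic ribosomal proteins themselves were not called, although 73 of the 77 tested lay below 0 and 4 above. Of 77 cytosolic ribosomal protein genes tested 0 passed in either direction with limma or voom, and 1 was called lower by limma with a length and GC correction. At an unadjusted limma p under 0.05, 2 were lower, and their median of -0.33 moved to -0.09 with scaling to library totals and to -0.02 with cyclic loess scaling. Of 73 mitochondrial ribosomal protein genes 5 were lower, a share of 6.85% beside 7.13% of all genes, with a median of -0.21 that became 0.03 with scaling to library totals. The count was 0 without either library with both inhibitors or without DMSO replicate 1, 2 without any 1 of the 4 libraries of a compound alone and 1 with scaling to library totals. Of 28 translation factors 6 were lower (21.4%, beside 7.13% of all genes). Fewer were called without either library with both inhibitors or either I-CBP112 library, and 3 with scaling to library totals. EIF4EBP1, the inhibitor of cap-dependent initiation held off by mTOR signalling and a target of ATF4, fell most, to 88.8 and 95.6 scaled FPKM with both inhibitors, against 489 and 368 with DMSO (log2 fold change -2.19 ± 0.21; limma, adjusted p = 0.00112).

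Of the 43 gene lists, the one with the largest share of called genes was built around ATF4, its relatives and targets. The cell translates ATF4 under amino acid shortage and other stress. The lists were chosen with earlier results of these data known, so this rank may partly return that choice. Of 40 genes tested in the ATF4 list, 34 fell (85%, beside 7.13% of all genes) and 0 rose. The median log2 fold change was -1.71, and all 40 lay below 0. The count was 20 without replicate 1 of both inhibitors and 24 without replicate 2. TRIB3, a pseudokinase that feeds back on ATF4, was at 46.7 and 41.9 scaled FPKM with both inhibitors, against 424 and 242 with DMSO (log2 fold change -2.83 ± 0.29; limma, adjusted p = 0.00138). CHAC1, which degrades glutathione, was at 12.3 and 14.6 with both inhibitors, against 102 and 74.5 with DMSO (log2 fold change -2.61 ± 0.22; limma, adjusted p = 0.000739). The glycine transporter gene SLC6A9 was at 5.06 and 6.90 with both inhibitors, against 46.3 and 36.5 with DMSO. The groups overlapped for none of the 3 genes, as for every gene called. Further amino acid transporters fell, SLC1A5 for glutamine by 2.59, SLC7A11 for cystine by 2.32, SLC7A1 for arginine by 1.99 and SLC7A5 for large neutral amino acids by 1.97 on the log2 scale, and all 4 were called with any 1 library left out. Secreted members fell too. GDF15, a stress cytokine, was at 338 and 378 with both inhibitors, against 1902 and 1662 with DMSO (log2 fold change -2.31 ± 0.19; limma, adjusted p = 0.000739), and FGF21, a metabolic hormone, was at 0.75 and 0.66 with both inhibitors, against 6.75 and 5.71 with DMSO. ATF4 mRNA was at 297 and 386 with both inhibitors, against 1061 and 872 with DMSO. It fell by 1.5 ± 0.24 on the log2 scale (limma, adjusted p = 0.00796, or 0.0787 without replicate 1 of both inhibitors). The partner gene DDIT3, which encodes CHOP, fell by 1.76, and was not called without replicate 1 of both inhibitors (limma, adjusted p = 0.0549). The 6 members not called were CBS, ALDH18A1, SLC38A2, ATF5, PPP1R15A and VLDLR.

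The promoters of CHAC1 and ASNS (asparagine synthetase) are shown because both fell and each holds 1 match to TGATGNAA. This is the form of the element at which ATF4 is known to bind with C/EBP proteins. The 250 bases before each start, from RefSeq on GRCh38.p14, are chr15:40953221-40953470 on the plus strand for CHAC1 and chr7:97872409-97872658 on the minus strand for ASNS, with the match in capitals.
CHAC1: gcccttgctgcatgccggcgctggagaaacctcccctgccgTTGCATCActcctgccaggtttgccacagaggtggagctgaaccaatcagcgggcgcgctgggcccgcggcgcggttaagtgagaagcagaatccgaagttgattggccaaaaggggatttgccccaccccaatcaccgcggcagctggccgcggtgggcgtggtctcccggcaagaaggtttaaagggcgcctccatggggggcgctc
ASNS: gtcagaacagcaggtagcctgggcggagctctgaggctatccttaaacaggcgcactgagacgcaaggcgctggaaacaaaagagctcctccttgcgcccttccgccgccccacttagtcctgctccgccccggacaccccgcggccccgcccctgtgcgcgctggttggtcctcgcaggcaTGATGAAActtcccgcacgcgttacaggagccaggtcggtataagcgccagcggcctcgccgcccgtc
The match lay 209 bases before the start in CHAC1, on the opposite strand, and 68 bases before it in ASNS. ASNS fell by 1.81 on the log2 scale (limma, adjusted p = 0.00436). On either strand TGATGNAA stood in 4 of 32 windows of the ATF4 list (12.5%), those of ASNS, ATF3, CHAC1 and FGF21. It stood in 3.19% of all 27305 windows, 1.26% of those of genes tested, 3.26% of those of genes that fell and 1.31% of those of genes that rose.

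**Figure D3:**
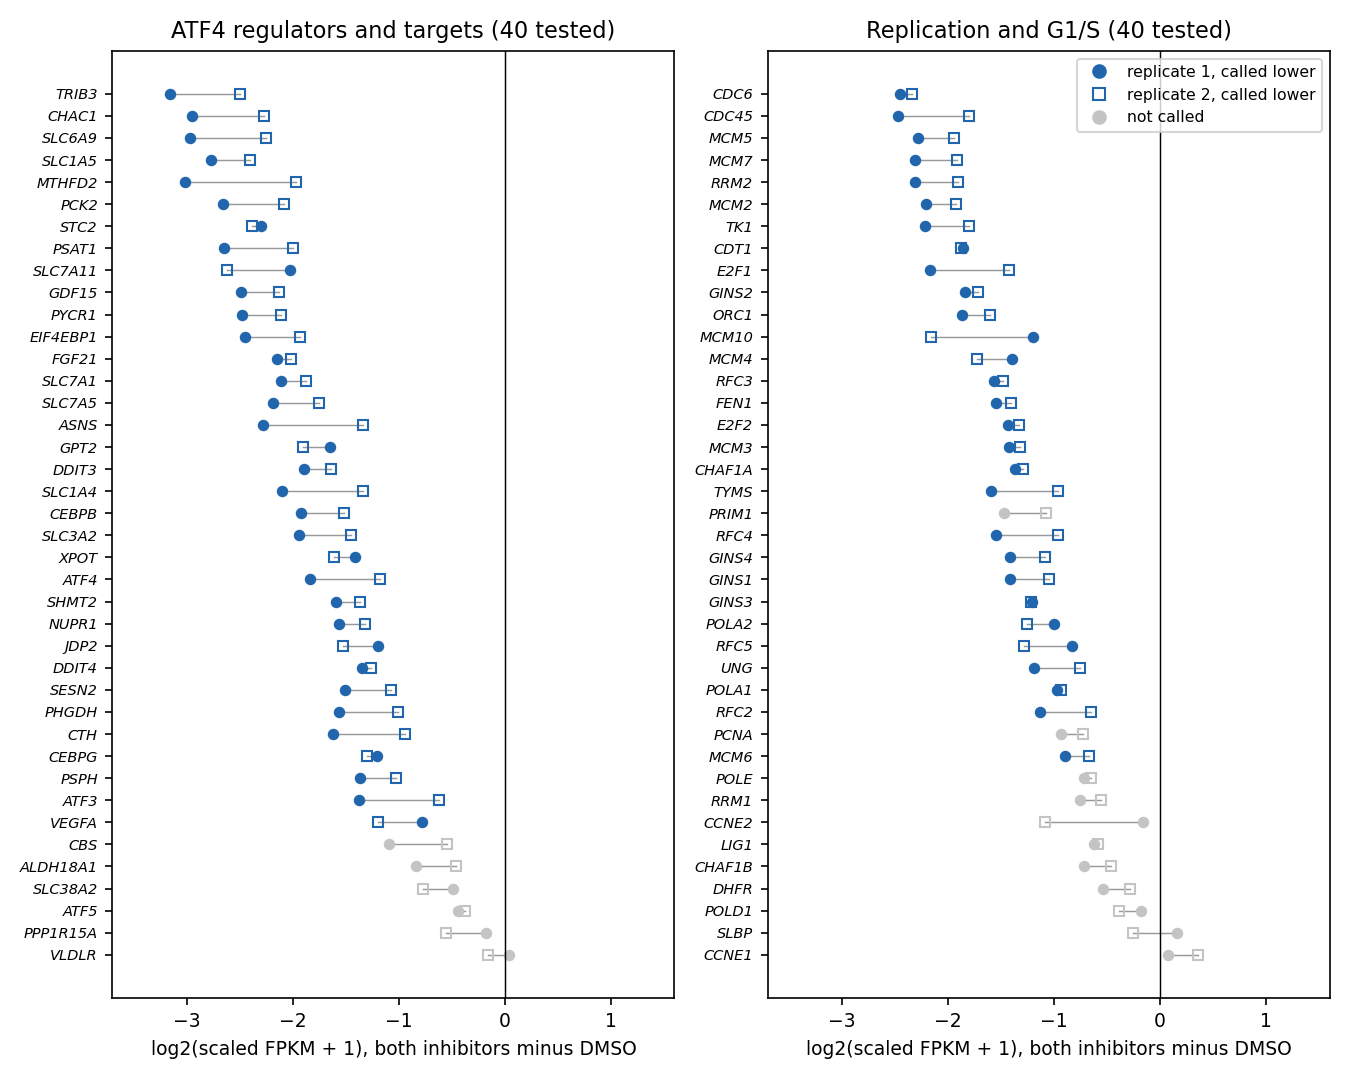
Change in log2(scaled FPKM + 1), both inhibitors minus DMSO, for each gene tested in the ATF4 list (left) and the replication and G1/S list (right), with filled circles for replicate 1, open squares for replicate 2, blue for genes called lower and grey for genes not called. In the ATF4 list 34 of 40 genes are blue, led by TRIB3, and in the replication list 29 of 40, led by CDC6.

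Several genes for enzymes that make amino acids or load them onto tRNA also fell. Of 17 genes of serine, glycine and one-carbon metabolism, 11 fell and 0 rose (median -1.12), 3 without replicate 1 of both inhibitors, 5 without replicate 2, and 7 without DMSO replicate 1 or with scaling to library totals. PSAT1, the serine aminotransferase, was at 84.1 and 106 scaled FPKM with both inhibitors, against 531 and 427 with DMSO (log2 fold change -2.32 ± 0.21; limma, adjusted p = 0.000957). MTHFD2, the mitochondrial folate enzyme, was at 17.3 and 29.99 with both inhibitors, against 147 and 120 with DMSO (log2 fold change -2.49 ± 0.28; limma, adjusted p = 0.00215). PHGDH, the first enzyme of serine synthesis, was at 470 and 490 with both inhibitors, against 1394 and 987 with DMSO, and its log2 fold change of -1.29 was not called without replicate 1 or 2 of both inhibitors (limma, adjusted p up to 0.097). Of 37 aminoacyl-tRNA synthetases, 10 fell and 0 rose (median -0.39), 5 without replicate 1 and 6 without replicate 2 of both inhibitors. These were GARS, YARS, IARS, MARS, VARS, AARS, CARS, WARS, SARS and LARS, which serve the cytosol, GARS also the mitochondria. GARS was at 63.8 and 77.8 with both inhibitors, against 275 and 243 with DMSO (log2 fold change -1.86 ± 0.21; limma, adjusted p = 0.0022). In polyamine metabolism 3 of 11 genes fell (27.3%, beside 7.13% of all genes), and fewer without either library with both inhibitors. AMD1, the decarboxylase that supplies aminopropyl groups, was at 42.6 and 44.9 with both inhibitors, against 202 and 170 with DMSO (log2 fold change -2.05 ± 0.19; limma, adjusted p = 0.00105).

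Of 32 genes of protein folding in the endoplasmic reticulum and the unfolded protein response, 12 fell and 1 rose (median -0.54). The count of falls was 2 without replicate 1 of both inhibitors, 4 without replicate 2 of both inhibitors, 5 without DMSO replicate 1, and 7 without either I-CBP112 library or with scaling to library totals. The 1 rise, of ERO1B, was lost with any 1 of the 8 libraries left out (limma, adjusted p up to 0.267). HERPUD1, which takes part in the degradation of misfolded proteins, was at 78.9 and 105 scaled FPKM with both inhibitors, against 270 and 278 with DMSO (log2 fold change -1.57 ± 0.19; limma, adjusted p = 0.00316). HSPA5, the chaperone BiP, fell by 0.91 on the log2 scale and was not called without replicate 1 or 2 of both inhibitors or without DMSO replicate 1 (limma, adjusted p up to 0.161).

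Genes of DNA replication and of entry into S phase fell in large part. Of 40 tested, 29 fell (72.5%, beside 7.13% of all genes) and 0 rose, with a median log2 fold change of -1.26, and 39 lay below 0. The count was 16 without replicate 1 of both inhibitors and 18 without replicate 2. CDC6, which loads the replicative helicase, was at 3.21 and 4.91 scaled FPKM with both inhibitors, against 22.1 and 28.9 with DMSO (log2 fold change -2.40 ± 0.28; limma, adjusted p = 0.00238). MCM5, a helicase subunit, was at 16.7 and 15 with both inhibitors, against 85.0 and 60.9 with DMSO (log2 fold change -2.11 ± 0.20; limma, adjusted p = 0.00105). RRM2, the regulated subunit of ribonucleotide reductase, was at 7.87 and 8.70 with both inhibitors, against 43 and 35.2 with DMSO. MCM2, MCM4, MCM7, CDC45, CDT1, GINS2 and ORC1 fell, with log2 fold changes from -2.14 to -1.56, and were called with any 1 library left out. The members not called included PCNA, the sliding clamp, and CCNE1, a cyclin whose value was above 0 in both replicates. The E2F site TTTCGCGC, on either strand, stood in 3 of 35 promoter windows of this list (8.57%), those of MCM6, MCM7 and POLA2, and in 0.469% of all windows and 0.844% of those of genes tested.

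Of 32 genes of G2 and mitosis, 9 fell and 0 rose (median -0.55). The count was 0 without replicate 1 or 2 of both inhibitors, 4 without DMSO replicate 1 or either A-485 library, and 2 without either I-CBP112 library or with scaling to library totals. MYBL2, a transcription factor of the mitotic programme, was at 30.9 and 27.2 scaled FPKM with both inhibitors, against 102 and 61.3 with DMSO, and its log2 fold change of -1.41 was not called without replicate 1 or 2 of both inhibitors or without DMSO replicate 1 (limma, adjusted p up to 0.108). In homologous recombination and the Fanconi pathway 8 of 31 fell (median -0.70), with 1 called without replicate 1 of both inhibitors and 2 without replicate 2. RAD54L, a motor protein of strand exchange, was at 4.02 and 2.06 with both inhibitors, against 14 and 16.5 with DMSO (log2 fold change -2.05 ± 0.25; limma, adjusted p = 0.00291). Of 24 genes of nucleotide synthesis 9 fell (median -0.71), with 1 called without replicate 1 of both inhibitors, 4 without replicate 2 of both inhibitors and 5 without DMSO replicate 1. NME1, a nucleoside diphosphate kinase, was at 145 and 174 with both inhibitors, against 613 and 482 with DMSO (log2 fold change -1.76 ± 0.25; limma, adjusted p = 0.00537, or 0.0529 without replicate 1 of both inhibitors).

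Among 14 D cyclins, cyclin-dependent kinases and their inhibitors the called genes split, 3 lower and 3 higher (42.9% called, beside 10.5% of all genes). CCND1, cyclin D1, was at 48.3 and 46.4 scaled FPKM with both inhibitors, against 95.7 and 97.2 with DMSO (log2 fold change -1.01 ± 0.17; limma, adjusted p = 0.0121, and up to 0.0939 without either library with both inhibitors). CDK2 and CDK4 fell by 1.02 and 0.96 on the log2 scale. The inhibitor genes CDKN1C, CDKN2B and CDKN2D rose by 1.22, 1.03 and 0.76. CDKN1C, which encodes p57, was at 4.99 and 6.75 with both inhibitors, against 2.26 and 1.63 with DMSO. None of the 6 was called in every fit with 1 library left out. CDK2 was lost without replicate 1 of both inhibitors (limma, adjusted p = 0.116), and CDKN1C without either library with both inhibitors or DMSO replicate 2 (0.137). CDKN2B was lost without either library with both inhibitors, either library with I-CBP112 alone or DMSO replicate 1, and CDK4 and CDKN2D without 7 of the 8 libraries each (limma, adjusted p up to 0.191 for CDKN2B, 0.19 for CDK4 and 0.187 for CDKN2D). CDKN1A, which encodes p21, was at 149 and 112.3 with both inhibitors, against 315 and 198 with DMSO, and its log2 fold change of -0.94 ± 0.31 did not pass (limma, adjusted p = 0.0938). It was called lower with a length and GC correction (limma, adjusted p = 0.0245) and with voom (adjusted p = 0.0358).

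Of 25 targets of the tumour suppressor p53, 11 fell and 0 rose (median -0.63), with 2 called without replicate 1 of both inhibitors, 3 without replicate 2, and 7 without DMSO replicate 1 or with scaling to library totals. They included GDF15 and SESN2, which also stand in the ATF4 list. AEN, an apoptotic nuclease, was at 10.7 and 10.8 scaled FPKM with both inhibitors, against 35.4 and 27.1 with DMSO (log2 fold change -1.44 ± 0.20; limma, adjusted p = 0.00525). MDM2, the ubiquitin ligase that limits p53, had a log2 fold change of -1.32 (limma, adjusted p = 0.18). In the BCL2 family 5 of 15 fell, all from the death-promoting side, PMAIP1 (NOXA), BOK, BBC3 (PUMA), BIK and BID, and PMAIP1 was the 1 left without either library with both inhibitors. Without DMSO replicate 1 or with scaling to library totals 2 were called. PMAIP1 was at 2.45 and 2.92 with both inhibitors, against 9.56 and 10.8 with DMSO (log2 fold change -1.6 ± 0.20; limma, adjusted p = 0.00348). The survival genes MCL1 and BCL2L1 were at 0.34 and -0.72 and did not pass (limma, adjusted p = 0.23 and 0.63).

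The genes of the inhibited proteins did not pass the test. EP300 was at 13.1 and 14.02 scaled FPKM with both inhibitors, against 7.16 and 10.6 with DMSO (log2 fold change 0.58 ± 0.22; limma, adjusted p = 0.125). CREBBP was at 14.8 and 12.1 with both inhibitors, against 6.25 and 12.2 with DMSO, and the groups overlapped (log2 fold change 0.55 ± 0.29; limma, adjusted p = 0.255). Without DMSO replicate 2 both were called higher, EP300 by 0.84 and CREBBP by 0.99 on the log2 scale (limma, adjusted p = 0.0489 and 0.0408). Of 18 acetyltransferase genes 1 rose, KAT2B (PCAF), a share of 5.56% beside 3.38% of all genes. KAT2B was at 7.59 and 7.54 with both inhibitors, against 3.26 and 3.34 with DMSO (log2 fold change 0.99 ± 0.18, limma adjusted p = 0.014). It was not called without either library with both inhibitors. None of 17 deacetylase and sirtuin genes was called by limma, with 1 lower and 4 higher at an unadjusted p under 0.05 and 1 called lower by voom, while 1 was called higher with scaling to library totals and 2 with a length and GC correction. None of 26 nuclear receptor coregulators was called, with 0 lower and 3 higher at an unadjusted p under 0.05 and 1 called higher by voom, by limma without DMSO replicate 2, with scaling to library totals or with a length and GC correction. None of 38 splicing genes was called, with 4 lower and 5 higher at an unadjusted p under 0.05 and 3 called lower and 2 higher by voom. The splicing count was 6 higher without DMSO replicate 2, 1 higher without DMSO replicate 1, 2 higher with scaling to library totals and 3 lower with a length and GC correction. EZH2, the methyltransferase of Polycomb, was at 6.95 and 6.67 with both inhibitors, against 18.3 and 19.3 with DMSO (log2 fold change -1.34 ± 0.17; limma, adjusted p = 0.00358). Another Polycomb gene, PHF1, rose by 0.94 on the log2 scale, and was lost without either library with both inhibitors, either library with I-CBP112 alone or DMSO replicate 2 (limma, adjusted p up to 0.183).

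HEXIM1, the inhibitor of the elongation kinase P-TEFb, was at 69.3 and 73.6 scaled FPKM with both inhibitors, against 16.1 and 19.5 with DMSO. It rose by 1.95 ± 0.17 on the log2 scale (limma, adjusted p = 0.000739), with 2.04 in replicate 1 and 1.87 in replicate 2, and was called with any 1 library left out. It was the 1 gene called among 14 of P-TEFb, its regulators and the BET proteins, a list that also held SERPINI1. That is 7.14%, beside 3.38% of all genes called higher. BRD2, a BET protein, had a log2 fold change of 0.64 and did not pass (limma, adjusted p = 0.06). The HEXIM1 promoter is shown because HEXIM1 rose in both replicates and its window holds a TATA box close to the start. It is from RefSeq on GRCh38.p14, chr17:45148225-45148474 on the plus strand, with TATAAA in capitals, 29 bases before the start.
HEXIM1: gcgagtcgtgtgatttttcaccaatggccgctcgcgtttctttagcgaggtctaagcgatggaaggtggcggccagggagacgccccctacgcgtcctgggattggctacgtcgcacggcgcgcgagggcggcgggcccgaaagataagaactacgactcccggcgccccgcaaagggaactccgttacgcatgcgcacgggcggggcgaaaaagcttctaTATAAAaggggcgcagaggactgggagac
On either strand TATAAA stood in 11.1% of all windows, 4.82% of those of genes tested, 5.25% of those of genes that rose and 7.91% of those of genes that fell. HIST2H2BE, a polyadenylated histone H2B gene, was at 248 and 313 with both inhibitors, against 111 and 113 with DMSO (log2 fold change 1.31 ± 0.22; limma, adjusted p = 0.0114, or 0.0926 without replicate 2 of both inhibitors).

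Other genes rose to low or middle levels. IFI27L2, a mitochondrial protein gene related to IFI27, was at 30.7 and 40.3 scaled FPKM with both inhibitors, against 2.25 and 2.72 with DMSO (log2 fold change 3.38 ± 0.28; limma, adjusted p = 0.000739). OPTN, the autophagy receptor optineurin, was at 24.4 and 19.8 with both inhibitors, against 2.61 and 3.61 with DMSO (log2 fold change 2.49 ± 0.24; limma, adjusted p = 0.00111). FUT8, which adds the core fucose to N-glycans, was at 7.15 and 9.11 with both inhibitors, against 0.89 and 1.36 with DMSO (log2 fold change 2.10 ± 0.23; limma, adjusted p = 0.00209). The groups of these 3 genes did not overlap, a trait shared by all called genes. DPP3, a dipeptidyl peptidase gene, was at 55.6 and 45.5 with both inhibitors, against 5.40 and 8.71 with DMSO (log2 fold change 2.70 ± 0.25). The transcript ENST00000541961 held 68.6% and 96.9% of the DPP3 level with both inhibitors, against 10.4% and 1.2% with DMSO. RCAN2, a calcineurin inhibitor gene, was at 3.68 and 5.06 with both inhibitors, against 0.39 and 0.52 with DMSO (log2 fold change 1.87 ± 0.22).

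Several of the largest rises carry a zero or an overlapping gene. MT3, a metallothionein, was at 10.03 and 12.2 scaled FPKM with both inhibitors, and was listed at 0 in 1 DMSO library and at 0.90 in the other. Of 6 metallothioneins tested 4 lay below 0 and 2 above. The more abundant MT1G was called lower, at 43.9 and 36.7 with both inhibitors, against 130 and 71.0 with DMSO (limma, adjusted p = 0.0473). Its log2 fold change of -1.24 ran from -1.67 to -0.81 with 1 library left out. AMIGO3, a leucine-rich repeat membrane protein gene, was at 15.1 and 12.8 with both inhibitors, against 1.3 and 0.0002 with DMSO. SNORC was at 9.61 and 10.9 with both inhibitors, and was listed at 2.90 and at effectively 0 with DMSO. It was not called without replicate 1 or 2 of both inhibitors (limma, adjusted p up to 0.129). AMIGO3 shares exon sequence with GMPPB and, on the other strand, RNF123, and SNORC with GIGYF2 and NGEF. FANK1 and DKFZp779M0652 were at 3.17 and 3.32 and at 3.80 and 3.24 with both inhibitors, and each was listed at 0 in DMSO replicate 2. DPP3, OPTN, FUT8, C1R, HEXIM1, CLUL1, ETNK2, MVP and, among the falls, DDC, KCNN2, PRUNE2 and TRPM8 overlap exons of other annotated genes, and it is not stated whether fragments were assigned by strand, so the gene behind the shared fragments is uncertain. The same holds for 59 of the 150 genes eligible to be named, these included. Of the genes just named, C1R, ETNK2 and MVP were not called without replicate 1 or 2 of both inhibitors or without DMSO replicate 2, and C1R also not without either A-485 library (limma, adjusted p up to 0.234). CLUL1 was not called without replicate 2 of both inhibitors (limma, adjusted p = 0.0518), and DKFZp779M0652 not without replicate 1 of both inhibitors (limma, adjusted p = 0.0682).

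**Figure D4:**
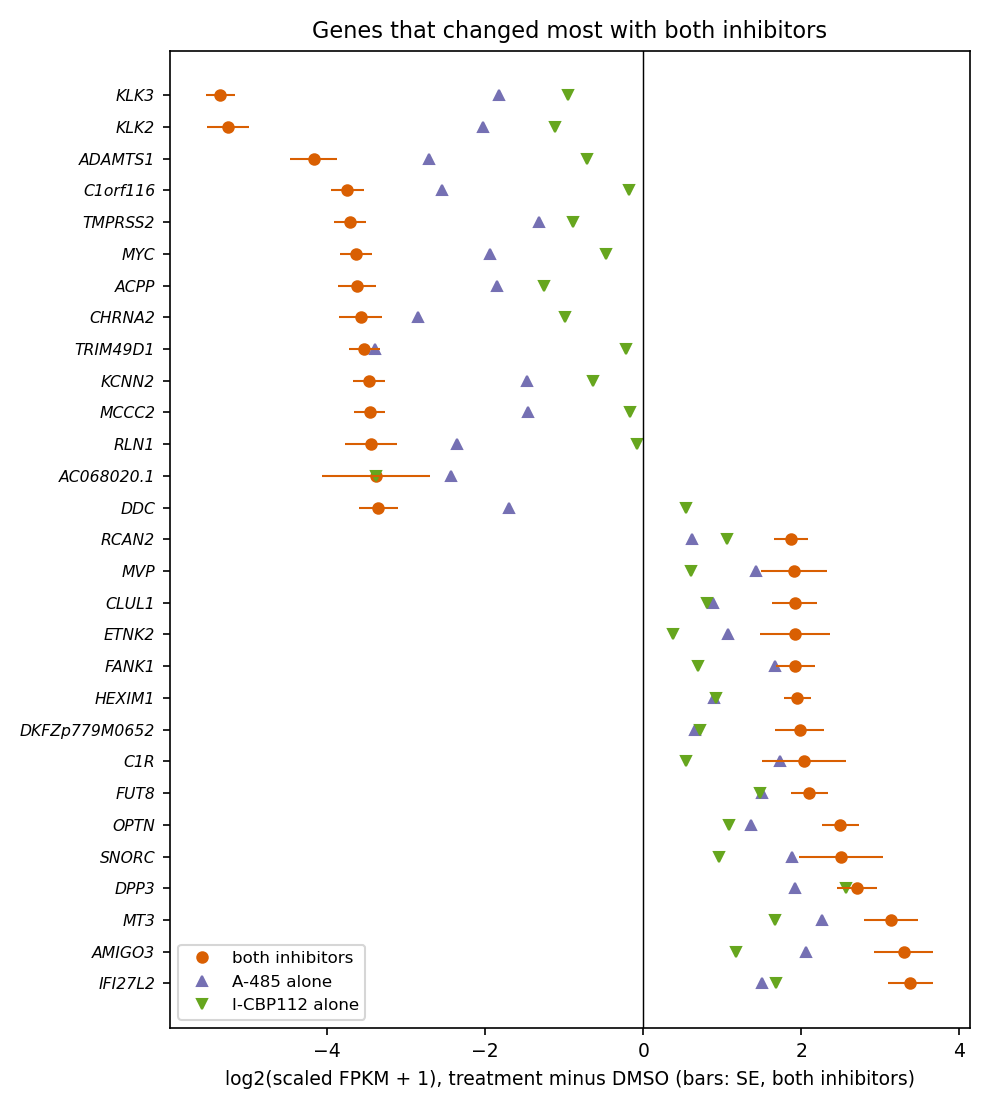
Rows show 14 of the 15 genes with the largest fall (upper rows) and the 15 with the largest rise (lower rows), with the change in log2(scaled FPKM + 1), treatment minus DMSO, for both inhibitors (circles, bars for the SE), A-485 alone (upward triangles) and I-CBP112 alone (downward triangles). KLK3 and KLK2 lie at -5.35 and -5.26 with both inhibitors, and all 3 contrasts share the DMSO libraries. AC068020.1, TRIM49D1, MT3, SNORC, FANK1 and DKFZp779M0652 had libraries listed at 0 and AMIGO3 1 next to 0, so their positions depend on the 1 that was added.

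The largest falls also held genes on none of the 43 lists, among them ADAMTS1, RLN1 and MCCC2. ADAMTS1, an extracellular metalloprotease, was at 2.35 and 0.93 scaled FPKM with both inhibitors, against 41.6 and 48.0 with DMSO (log2 fold change -4.17 ± 0.30; limma, adjusted p = 0.00043). CHRNA2, a nicotinic receptor subunit on the androgen-induced list, was at 0.51 and 0.27 with both inhibitors, against 16.3 and 14.7 with DMSO (log2 fold change -3.58 ± 0.28). RLN1, the hormone relaxin 1, was at 2.71 and 3.90 with both inhibitors, against 37.1 and 55.5 with DMSO (log2 fold change -3.44 ± 0.33). MCCC2, a subunit of a mitochondrial carboxylase of leucine breakdown, was at 4.34 and 4.91 with both inhibitors, against 63.1 and 58.6 with DMSO (log2 fold change -3.46 ± 0.20). With 1 library left out, the log2 fold changes of these 4 genes lay between -4.56 and -3.16. TRIM49D1, of a family of near-identical copies between which the fragments are uncertain, was listed at 0 and 0.06 with both inhibitors, against 10.6 and 11.2 with DMSO. AC068020.1 was listed at 0 in both libraries with both inhibitors, against 4.57 and 18.5 with DMSO, and was also at 0 in both I-CBP112 libraries. It was not called without either library with both inhibitors or DMSO replicate 2. Its log2 fold change ran from -4.28 to -2.48 with 1 library left out. Counting genes of at least 5 in both DMSO libraries and under 1 in both with the inhibitors, 11 were found, ACPP, CHRNA2, TRIM49D1, ADRA2A, SYT4, DTL, DUSP27, FGF21, GREB1, KLF4 and CD274. KLF4, a reprogramming factor, was at 0.95 and 0.96 with both inhibitors, against 5.45 and 6.14 with DMSO. CD274, which encodes the immune checkpoint ligand PD-L1, was at 0.86 and 0.77 with both inhibitors, against 5.32 and 5.46 with DMSO. In the opposite direction 1 gene met the same rule, MT3.

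Among the called genes KLK3 lost most in absolute level, and GDF15 next. Some abundant genes that were not called, such as EEF2 and RPS2, differed by more between the group means than KLK3 did. SPON2, a secreted matrix protein, was at 179 and 172 scaled FPKM with both inhibitors, against 1036 and 791 with DMSO (log2 fold change -2.36 ± 0.20; limma, adjusted p = 0.000739). EIF5A, an elongation factor, was at 416 and 371 with both inhibitors, against 1085 and 717 with DMSO. EIF4A1, an RNA helicase of initiation, was at 956 and 1122 with both inhibitors, against 1834 and 1790 with DMSO. These last 2 fell by 1.16 and 0.81 on the log2 scale. EIF5A was not called without either library with both inhibitors, either library with I-CBP112 alone or DMSO replicate 1 (limma, adjusted p up to 0.168), and EIF4A1 not with any 1 of the 8 libraries left out (limma, adjusted p up to 0.253). Of the genes called higher HIST2H2BE gained most in mean level, followed by YWHAZ and MAGED1. YWHAZ had a mean of 409 with both inhibitors, against 246 with DMSO, and MAGED1 of 291, against 134. With 1 library left out, YWHAZ was called only without DMSO replicate 1. MAGED1 was not called without either library with both inhibitors or DMSO replicate 2. Smaller gains included those of GRN, the gene of the lysosomal growth factor progranulin, and NPC2, a lysosomal cholesterol carrier. GRN was at 154 and 150 with both inhibitors, against 88.0 and 69.9 with DMSO, and was not called without either library with both inhibitors or DMSO replicate 2 (limma, adjusted p up to 0.135). NPC2 was at 196 and 210 with both inhibitors, against 110 and 106 with DMSO, and was not called without any 1 of these 4 libraries (limma, adjusted p up to 0.148).

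More interferon and antigen presentation genes were called higher than lower. Of 41 tested, 3 fell and 7 rose, beside 7.13% and 3.38% of all genes. Their median was 0.38, and 30 lay above 0. Without replicate 1 of both inhibitors 3 rose, and without replicate 2 of both inhibitors 2. The count of falls was 1 without either library with both inhibitors, without DMSO replicate 1 or with scaling to library totals. IRF9, the DNA-binding subunit of an interferon-activated complex, was at 25.1 and 16.8 scaled FPKM with both inhibitors, against 5.79 and 6.47 with DMSO (log2 fold change 1.6 ± 0.22; limma, adjusted p = 0.00445). TAP2, a peptide transporter, was at 6.17 and 5.39 with both inhibitors, against 25 and 27.1 with DMSO (log2 fold change -2.0 ± 0.19; limma, adjusted p = 0.00111). The groups overlapped in neither, as in all genes called. ISG15, MX1 and IFIT3, classical interferon-stimulated genes, had log2 fold changes of 0.10, 0.08 and 0.27 (limma, adjusted p from 0.6 to 0.82). In autophagy and the lysosome 4 of 46 rose (8.7%, beside 3.38% of all genes) and 0 fell (median 0.21). Only OPTN stayed called without replicate 1 or 2 of both inhibitors, while 7 rose with scaling to library totals.

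Most neuroendocrine, stromal, endothelial and immune markers were under 1 scaled FPKM, and of those tested 3 of 5 neuroendocrine and 1 of 5 stromal, endothelial and immune markers rose, against 3.38% of all genes. Of 20 neuroendocrine markers 15 were under 1 in all 4 libraries, and of the 5 tested ENO2, TUBB3 and SYP rose, by 1.62, 1.26 and 1.18 on the log2 scale. The other 2 tested lay below 0, down to -0.64, and were not called. ENO2 also stands in the glycolysis and hypoxia list. The summed level of the 20 was 168 and 147 scaled FPKM with both inhibitors, against 106 and 76.9 with DMSO. ENO2, a neuronal enolase, was at 73.9 and 71.1 with both inhibitors, against 29.4 and 17.7 with DMSO (log2 fold change 1.62 ± 0.23; limma, adjusted p = 0.00588), and was called with any 1 library left out. TUBB3 and SYP were not called without replicate 1 or 2 of both inhibitors or DMSO replicate 2, and SYP not without DMSO replicate 1 (limma, adjusted p up to 0.155). Of 13 basal markers 7 were tested and 0 called by limma, with 1 lower and 1 higher at an unadjusted p under 0.05 and 2 called lower by voom and 1 by limma without DMSO replicate 2. The sums over the 13 were 11.3 and 14.3 with both inhibitors, against 16.2 and 27.6 with DMSO. Of 23 stromal, endothelial and immune markers 18 were under 1 in all 4 libraries. Of the 5 tested COL1A1, a collagen chain, rose to 11.7 and 9.60 with both inhibitors, against 3.42 and 3.53 with DMSO (log2 fold change 1.38 ± 0.18; limma, adjusted p = 0.00362). The part of these markers in the results was not tested.

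Among the lists of general metabolism the share called was 2.33% for oxidative phosphorylation, 3.85% for cholesterol, 12.5% for fatty acids and 15.2% for glycolysis and the hypoxia response, against 10.5% of all genes. In cholesterol synthesis and uptake 1 of 26 genes was called, lower. In oxidative phosphorylation 1 of 43 was called, ATP5MC1 (log2 fold change -1.14). In fatty acid metabolism 3 of 24 fell, ELOVL5, ELOVL7 and CPT1A. In glycolysis and the hypoxia response 3 of 33 fell, VEGFA, PDK1 and HK2, and 2 rose, ENO2 and ALDOC. The medians of these 4 lists lay between -0.14 and -0.02, and between 0.10 and 0.22 with scaling to library totals, where all genes lay at 0.25. With cyclic loess scaling they lay between -0.03 and 0.14. Of 17 zinc transporters 3 fell (17.6%, beside 7.13% of all genes). Fewer were called without either library with both inhibitors or either I-CBP112 library, and 1 with scaling to library totals. SLC30A4, which loads zinc into vesicles, was at 12.3 and 13.8 scaled FPKM with both inhibitors, against 42.7 and 50.7 with DMSO (log2 fold change -1.76 ± 0.17; limma, adjusted p = 0.00124). Among 25 CREB targets and immediate early genes 6 fell and 2 rose, so that 32% were called, beside 10.5% of all genes. Fewer falls were called without either library with both inhibitors. The 2 rises, of CRTC1 and ID2, were lost with any 1 of the 8 libraries left out. DUSP4, a phosphatase of ERK signalling, was at 1.38 and 1.44 with both inhibitors, against 11.8 and 10.5 with DMSO (log2 fold change -2.33 ± 0.17; limma, adjusted p = 0.000481). In the NF-kB list BCL3 was the 1 of 14 called, lower (7.14%, beside 7.13% of all genes). In the SWI/SNF list SMARCD3 was the 1 of 25 called, higher (4%, beside 3.38% of all genes). Of the genes named here, ELOVL5 was not called without replicate 1 of both inhibitors (limma, adjusted p = 0.0534). ELOVL7 was not called without either library with both inhibitors or DMSO replicate 1, and VEGFA and SMARCD3 not without either library with both inhibitors or DMSO replicate 2 (limma, adjusted p up to 0.175). BCL3 was lost without 5 libraries, ATP5MC1 and ALDOC without 7, and CPT1A, PDK1 and HK2 without any 1 of the 8 (limma, adjusted p up to 0.208).

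**Figure D5:**
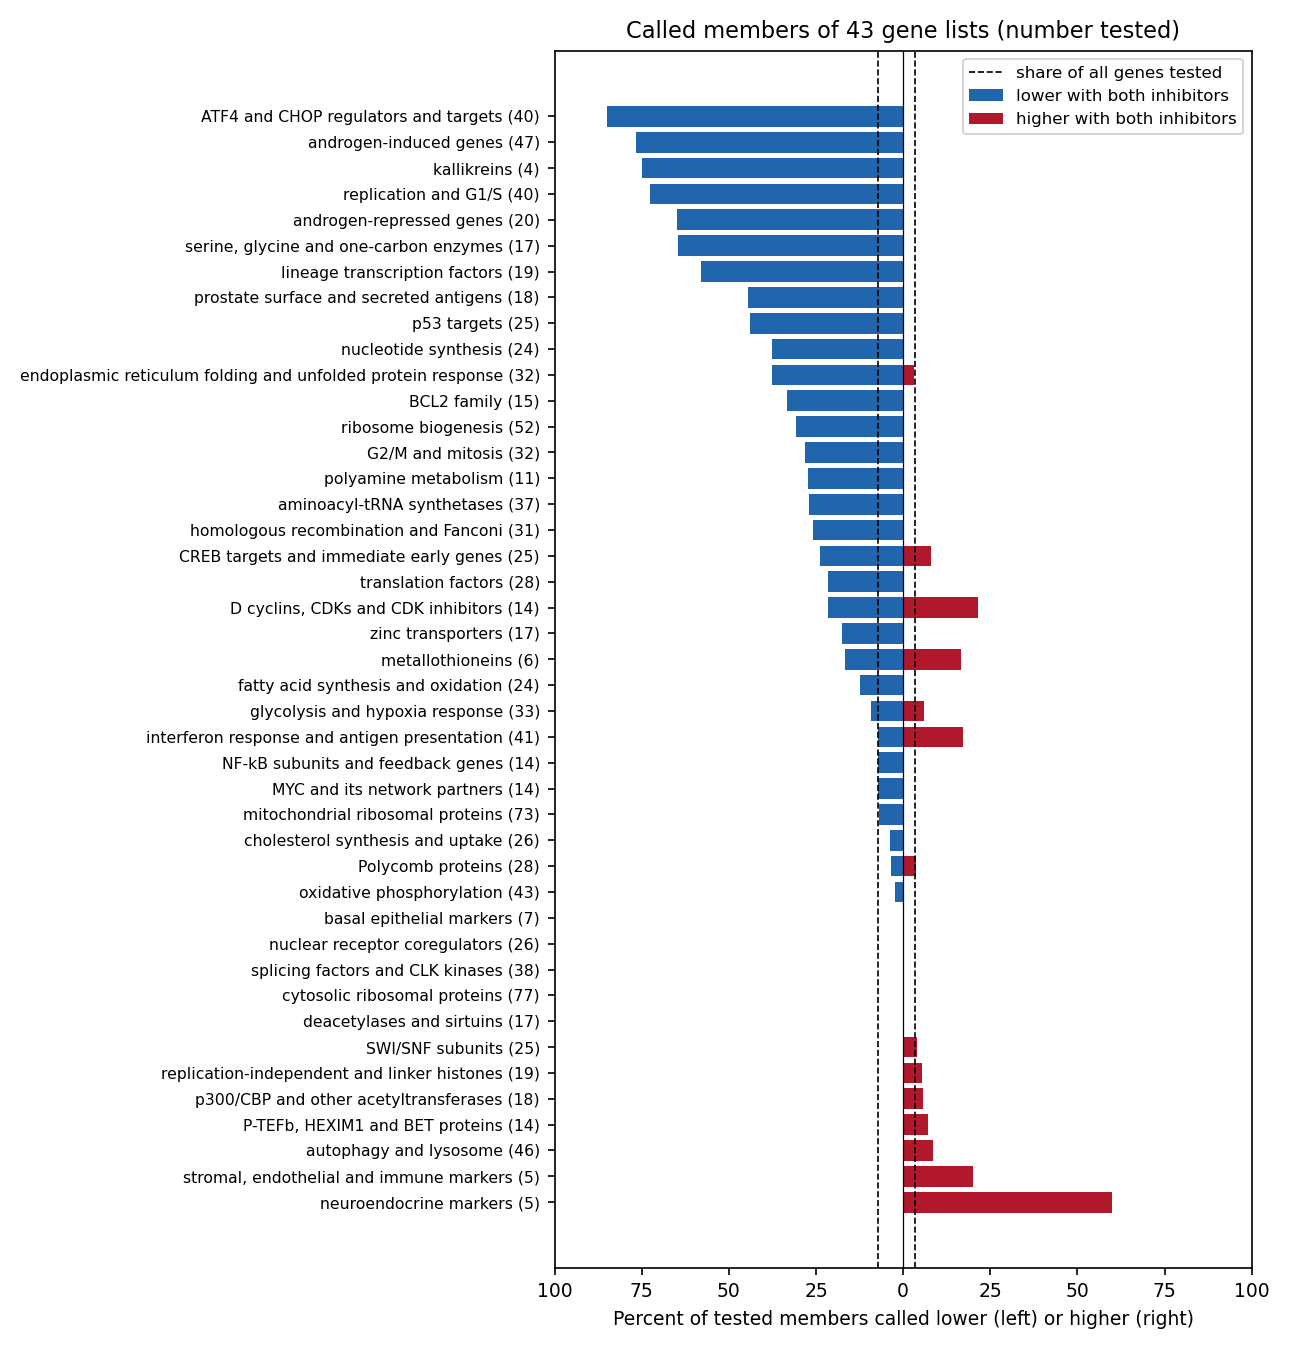
Share of the tested members of 43 gene lists called lower (blue, left) or higher (red, right) with both inhibitors, in percent, with the number tested after each name and dashed lines at the shares of all genes tested, 7.13% lower and 3.38% higher. The ATF4, androgen-induced, kallikrein and replication lists have the longest blue bars, and some lists share members. The lists were chosen with earlier results of these data known.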

How the data were processed

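RNA was extracted with Trizol and DNase and made into libraries with a New England Biolabs kit, per the labels' protocols. Builds hg19 and GRCh37 and the tools STAR, Cufflinks, DESeq2 and DESeq appear in the submitters' processing notes, which give no versions. The authors' deposited table held 81591 transcripts in 8 libraries. Although the table is called a count table, fractions made up 78.3% of its entries, and the smallest step between low entries shrank as transcripts grew longer, so the deposited values were taken as FPKM. No count test was run. A design that assumed counts gave way to limma.

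Transcripts were matched by Ensembl identifier to release 29 of GENCODE (GRCh38, used for names, lengths and GC content only); 74209 (91.0%) matched and held 95.7% to 96.6% of the FPKM. They were summed to 19431 genes. Fragments on the table were estimated from the value of 1 fragment in transcripts of at least 3000 bases, where 74.7% to 81.3% of low values came out whole within 0.1. Scaling brought every library to a sum of 1e+06, followed by a trimmed mean of log ratios (30% of ratios and 5% of levels trimmed). The median gene moved by 0.58 on the log2 scale in the FPKM as deposited and by 0.04 after scaling. Genes of at least 1 scaled FPKM in 2 libraries were tested on log2(scaled FPKM + 1) by limma (version 3.58.1, R 4.3.3). The fit took all 4 groups, which left 4 residual degrees of freedom, with a trended, robust variance. P-values of the 11873 genes were adjusted by the Benjamini-Hochberg method and called under 0.05. The fit was tested on simulated data.

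The 43 gene lists and the members were chosen with earlier results of these data known. The genes eligible to be named were the 15 largest falls and rises, a panel of regulators, up to 3 called genes per list and direction, the 10 largest losses and gains of level, and genes that crossed from at least 5 to under 1. They came to 150, and further list members are named as examples. Promoter windows are RefSeq's first listed window per gene, found for 9357 of the genes tested. Alternatives covered scaling, pseudocount, filter, samples, replicate block, length and GC, main transcript, gene type, voom and leaving out each library. Some genes are not reported here.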

Additional observations from a re-analysis of the deposited data

How the results depend on the processing

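Against 1247 genes called (401 higher, 846 lower), 657 (164, 493) were called with the 2 groups alone, 541 (123, 418) with the dominant transcript of each gene, 2206 (789, 1417) with a length and GC correction and 2360 (888, 1472) with voom on approximate fragments. Scaling to library totals gave 737 higher and 489 lower. The replicate number as a block gave 2390 (949, 1441), including all 1247, and 3014 (1173, 1841) with the length and GC correction. The labels do not say what the replicate number pairs, and deviations of replicate 1 correlated between groups at 0.145 to 0.425, so the block is given here alone, and it lost none of the 145 named genes that were called. It also called CDKN1A lower (limma, adjusted p = 0.00558) and 3 cytosolic ribosomal protein genes lower, or 19 with the length and GC correction. Leaving out 1 library gave 274 to 1276 calls, 38 to 481 higher and 236 to 795 lower. The called genes kept their sign in these settings except 21 with the dominant transcript. HOXB13 reversed, to 0.0054 with library totals, and ran from -0.516 to 0.0485 with 1 library left out. Of the 145, 71 were called in all 8 fits with 1 library left out, 58 were not called with the dominant transcript and 39 not with the 2 groups alone. The cause was not tested. DMSO replicate 2, with 4.70 M fragments, limits the precision of low genes.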

Other observations

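The share of genes called lower was 4.98% among genes of mean level under 3 scaled FPKM, 6.25% from 3 to 10, 7.54% from 10 to 30, 8.34% from 30 to 100 and 9.03% above 100. The share called higher was 3.9%, 4.43%, 3.85%, 2.27% and 1.08% over the same ranges, and the median log2 fold change ran from 0.16 in the lowest range to -0.18 in the highest. The median GC content of transcripts was 51.7% for genes that fell, 53.1% for genes that rose and 49.6% for genes not called, and the median length was 2374, 2206 and 2335 bases. Protein-coding genes made up 11766 of the genes tested, of which 840 fell and 394 rose. Of 34 antisense genes 1 fell and 4 rose, and of 34 lincRNAs 2 fell and 1 rose.

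The share of the main transcript differed between the groups in some genes beside DPP3. Such shares also differed between replicates of a group, as for KCNN2 (81.9% and 36.6% with both inhibitors) and OPTN (12.6% and 66.3% with DMSO). For TMPRSS2 the transcript ENST00000332149 held 54.3% and 85.2% of the level with both inhibitors, against 92.1% and 97.0% with DMSO. For FKBP5 and MCCC2 a single transcript held at least 98.3% in all 4 libraries.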
